A study of Mus musculus with 8 samples.

Results

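The glucocorticoid receptor and 9 genes around it were examined in brown adipose tissue (BAT), the thermogenic fat of rodents, after pressure overload of the heart. The 10 genes were chosen by symbol: Nr3c1, Hsd11b1, Fkbp5, Tsc22d3, Zbtb16, Klf9, Sgk1, Dusp1, Mt1 and Mt2. Every non-control probe whose RefSeq accession maps to one of these symbols was taken, which gave 12 probes of the 55681 on the array, for 10 of 21154 genes with a symbol. Each gene had 1 probe except Nr3c1 and Mt1, which had 2 probes each.

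Messenger RNA of BAT was measured on 1-colour Agilent arrays in 4 Sham and 4 TAC samples. All were from male C57BL/6NCrSlc mice, with no transgene or deletion named, operated on at 11 weeks of age and 13 weeks old at collection. TAC is thoracic aortic constriction, which narrows the aorta and loads the left ventricle, and Sham mice underwent a sham operation. The labels place collection at 2 weeks after surgery in one field and at 4 weeks in another, and the ages given fit 2 weeks. The labels do not say whether each sample was 1 mouse or a pool, so the p-values measure the spread between these samples. Scanner readings of 7 arrays were used here, Sham 2 to Sham 4 and TAC 1 to TAC 4, and the deposited table of intensities also holds Sham 1. Differences are TAC minus Sham on the log2 scale with limma's SE, from 3 Sham and 4 TAC scanner arrays unless 8 arrays are named. The values given for each array are from the table, where each intensity stands relative to a constant of its array. In homogenised tissue, fewer cells of a type and less RNA per cell cannot be told apart.

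Glucocorticoids are adrenal steroids that bind the receptor encoded by Nr3c1, which then moves to the nucleus and acts on genes near the DNA elements it binds. The enzyme encoded by Hsd11b1 regenerates active hormone inside cells, and FKBP5, a chaperone induced by the receptor, lowers its affinity for hormone. In brown fat, glucocorticoids are known to act on lipid storage and to restrain thermogenic genes in rodents.

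On the 7 scanner arrays, 54.5% to 64.3% of spots were well above background, and all 12 member probes were so on each array with no saturated spot. All 7 lay on 1 slide, the Sham arrays in the first row and the TAC arrays in the second, so row and group cannot be told apart. Ucp1, the uncoupling protein that defines brown adipocytes, and Adipoq, which encodes adiponectin, were well above background on each of these arrays. The log2 intensity of Ucp1 was 9.43, 9.60, 9.88 and 9.72 on Sham 1 to Sham 4 and 8.56, 9.40, 9.35 and 9.14 on TAC 1 to TAC 4. That of Adipoq was 8.37, 8.27, 8.28 and 8.21 in Sham and 8.22, 8.46, 8.56 and 8.45 in TAC. Ucp1 was lower on each TAC array than on each Sham array, whereas Adipoq overlapped.

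After TAC, 4 of the 10 genes were higher on average and 6 were lower. Over all tested probes on the 7 arrays, 44.15% were higher and 55.85% lower. The members higher were Zbtb16, Fkbp5, Tsc22d3 and Klf9, which encode 3 transcriptional regulators and a chaperone of the receptor. The members lower were Dusp1, Mt2, Hsd11b1, Sgk1, Mt1 and, by the smallest amount, Nr3c1, whose sign turned under quantile normalization. No member passed an adjusted p of 0.05 in limma over 33359 tested probes. There 0 probes passed on the 7 arrays and 0 passed on the 8 arrays, or 0% of all probes in each fit, and 0 passed by a plain t statistic. At an unadjusted p under 0.05 in the 7-array fit, 1 member was higher (Zbtb16), beside 4.38% of all probes, and 4 were lower (Dusp1, Hsd11b1, Mt1 and Mt2), beside 8.43% of all probes. With all 8 arrays fitted, 2 members were higher at that p, Tsc22d3 joining Zbtb16, beside 4.65%, and 4 were lower, beside 9.56%. The median log2 difference, TAC minus Sham, was -0.24 over the members and -0.03 over all tested probes on the 7 arrays.

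**Figure D1:**
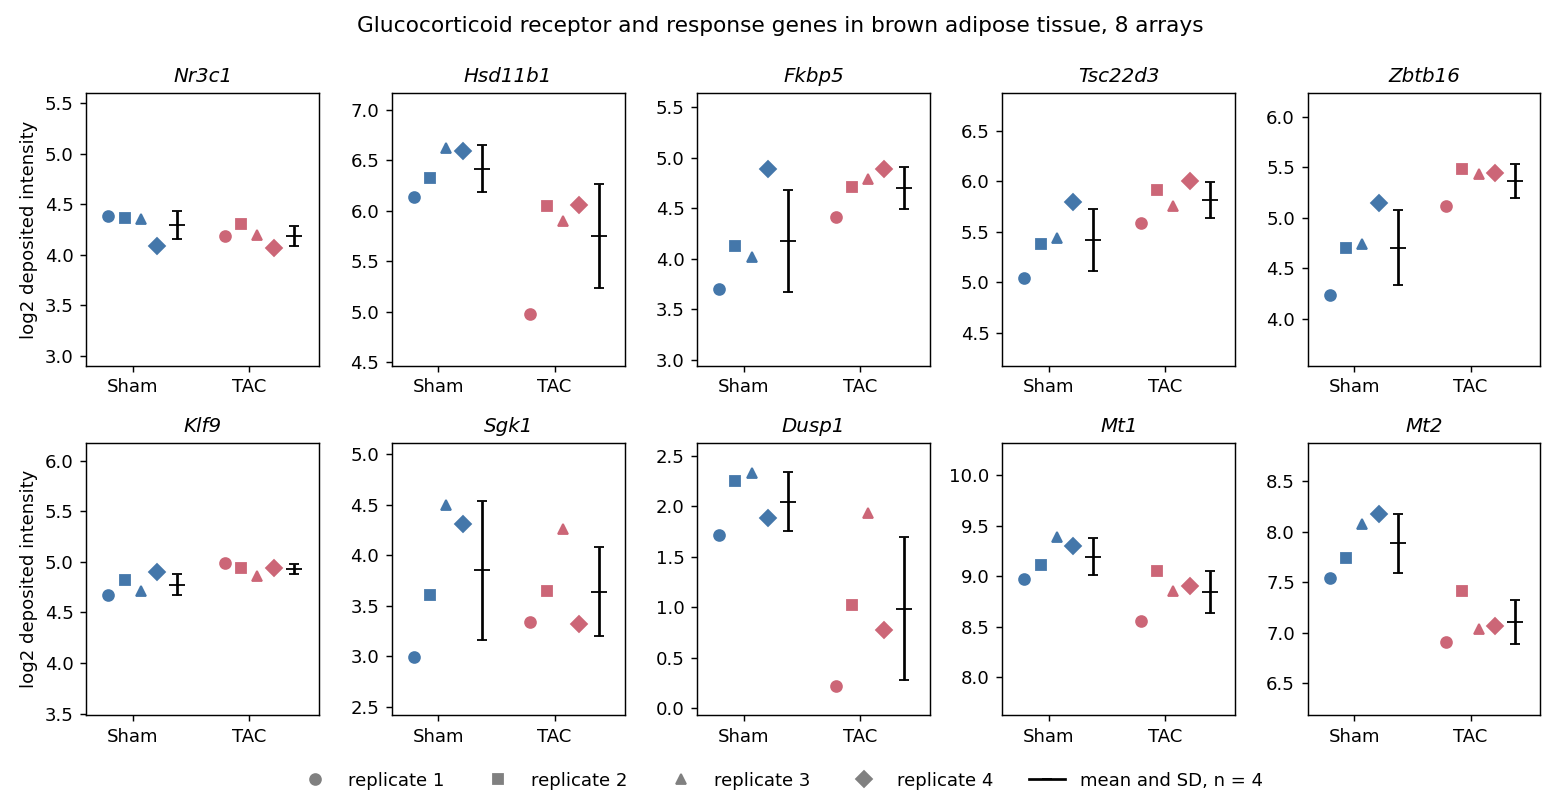
Log2 deposited intensity of the 10 genes on each of the 4 Sham (blue) and 4 TAC (red) arrays, with the mean and SD of each group in black. Each panel spans the same log2 range but is centred on its own gene. The TAC points of Hsd11b1 and Mt2 all sat under the Sham points, and Sham 1 (first blue circle) was the lowest Sham array in 9 of the 10 panels.

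The receptor itself differed little. The log2 intensity of Nr3c1 was 4.38, 4.37, 4.35 and 4.09 on Sham 1 to Sham 4 and 4.19, 4.30, 4.19 and 4.07 on TAC 1 to TAC 4. Sham 1, Sham 2 and Sham 3 lay close together above the TAC arrays, and Sham 4 lay among them. The log2 difference was -0.07 ± 0.10 (SE, 95% confidence interval -0.31 to 0.18, limma adjusted p = 0.805), and with Sham 1 in the 8-array fit it was -0.11 ± 0.10. The second Nr3c1 probe, which is dimmer, gave a difference of -0.07 ± 0.18. Under quantile normalization the brighter probe turned to 0.012.

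Hsd11b1, the enzyme that restores active corticosterone from its inactive form, was lower after TAC. Its log2 intensity was 6.13, 6.32, 6.62 and 6.59 on Sham 1 to Sham 4 and 4.98, 6.05, 5.90 and 6.06 on TAC 1 to TAC 4. Each TAC array lay below each Sham array, but TAC 1 lay far under the other 3. TAC and Sham differed by a log2 value of -0.75 ± 0.28 (SE, limma adjusted p = 0.349), or 1.68-fold higher in Sham, and -0.67 ± 0.25 over the 8 arrays. Without TAC 1 it was -0.49 on the scanner arrays and -0.42 in the table. The probe is printed as 10 spots on each array, of which 9 to 10 were used, and the SD between these spots was 0.03 to 0.08 on the log2 scale. On TAC 1 the 10 spots ran from 4.69 to 4.92 on the scale of the scanner readings, and the lowest spot on any other array was at 5.64. The low value of TAC 1 was therefore shared by every spot of that array.

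Over all 8 arrays, 2 members had TAC wholly below Sham, Hsd11b1 and Mt2, and 0 had TAC wholly above it. Among all tested probes 6.3% lay wholly below and 3.53% wholly above.

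Fkbp5, Tsc22d3 and Zbtb16 are response genes that the activated receptor induces in many tissues. Tsc22d3 encodes GILZ, which restrains inflammatory transcription factors, and Zbtb16 encodes the zinc finger repressor PLZF. All were higher on average after TAC, and all varied widely among the Sham arrays.

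For Fkbp5 the log2 intensity was 3.70, 4.12, 4.01 and 4.88 on Sham 1 to Sham 4 and 4.41, 4.71, 4.79 and 4.89 on TAC 1 to TAC 4. Sham 4 reached the level of the highest TAC arrays, so the groups overlapped. The mean of TAC minus that of Sham was 0.38 ± 0.23 (SE, limma adjusted p = 0.518), and 0.52 ± 0.24 with Sham 1. It was 0.65 without Sham 4 and 0.22 without Sham 3 on the scanner arrays. The SD over the 4 Sham arrays was 0.50, against 0.20 over the TAC arrays.

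For Tsc22d3 the log2 intensity was 5.05, 5.38, 5.44 and 5.80 on Sham 1 to Sham 4 and 5.59, 5.91, 5.75 and 6.00 on TAC 1 to TAC 4. Sham 4 again lay within the TAC range, and the other Sham arrays lay below it. Between the groups the difference was 0.29 ± 0.15 (SE, limma adjusted p = 0.460) and 0.40 ± 0.16 with Sham 1.

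Zbtb16 had the largest positive difference of the members. Its log2 intensity was 4.23, 4.70, 4.74 and 5.15 on Sham 1 to Sham 4 and 5.11, 5.48, 5.43 and 5.44 on TAC 1 to TAC 4. Only Sham 4 and TAC 1 overlapped, narrowly. TAC minus Sham came to 0.52 ± 0.15 (SE, limma adjusted p = 0.277), and 0.66 ± 0.19 with Sham 1.

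Across these 3 genes the arrays fell in a like pattern. Sham 1 was the lowest and Sham 4 the highest of the Sham arrays, and TAC 1 was the lowest of the TAC arrays, for each of them. Sham 1 lay below the mean of the other Sham arrays by a log2 difference of -0.64 for Fkbp5, -0.49 for Tsc22d3 and -0.63 for Zbtb16. The 7-array differences between the groups, which leave Sham 1 out, were smaller for each of them.

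Klf9, a Krüppel-like factor that responds to glucocorticoid and thyroid hormone, showed the narrowest spread. The log2 intensity was 4.68, 4.82, 4.71 and 4.90 on Sham 1 to Sham 4 and 4.99, 4.94, 4.86 and 4.94 on TAC 1 to TAC 4. Only Sham 4 reached the TAC range. The groups differed by 0.14 ± 0.08 (SE, limma adjusted p = 0.516) and 0.15 ± 0.08 with Sham 1.

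**Figure D2:**
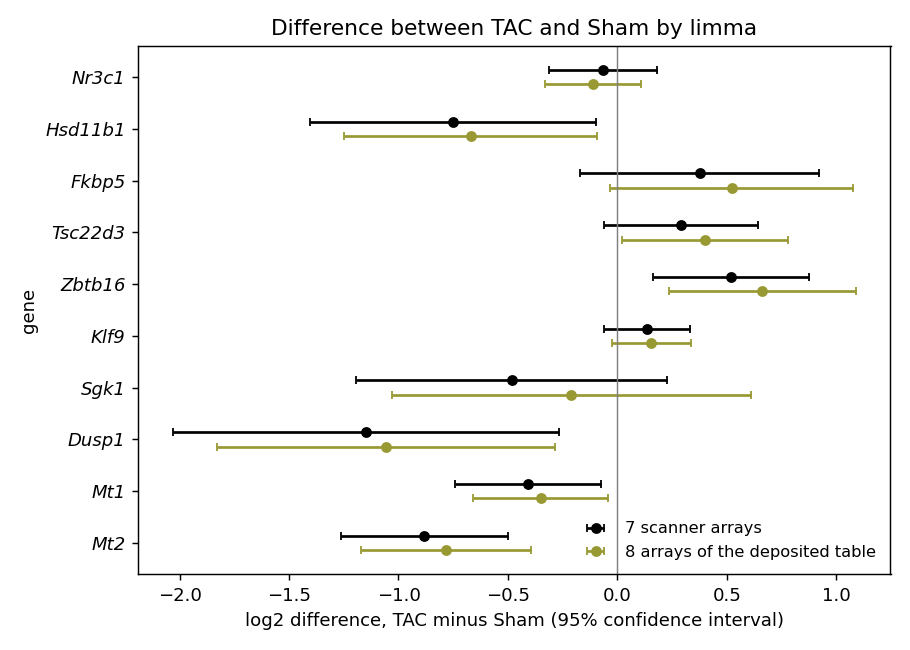
Log2 difference, TAC minus Sham, of each gene with its 95% confidence interval from limma, on the 7 scanner arrays (black) and on the 8 arrays of the deposited table (olive). Adding Sham 1 moved Fkbp5 from 0.38 to 0.52 and Sgk1 from -0.48 to -0.21, while Mt2, Hsd11b1, Mt1, Dusp1 and Zbtb16 kept intervals on 1 side of 0 in both fits, before any adjustment for the number of probes.

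Sgk1 and Dusp1 are response genes that also answer to other stimuli within minutes to hours. SGK1 is a kinase that regulates ion channels and metabolism, and DUSP1 is a phosphatase that switches off MAP kinases.

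The log2 intensity of Sgk1 was 2.99, 3.60, 4.50 and 4.31 on Sham 1 to Sham 4 and 3.34, 3.65, 4.26 and 3.32 on TAC 1 to TAC 4. Sham 1 was below all TAC arrays, while Sham 3 and Sham 4 were above them. On the 7 arrays this was a difference of -0.48 ± 0.30 (SE, limma adjusted p = 0.523), but -0.21 ± 0.36 with Sham 1. The size rested on single arrays. On the scanner arrays it was -0.75 without Sham 2, -0.69 without TAC 3 and -0.30 without Sham 3, and in the table without Sham 3 it was 0.0058, the only 1 of 28 alternatives with the other sign.

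Sgk1 is shown here because it carried the only full glucocorticoid response element found before a member's start. The 250 bases before each start in the RefSeq promoter table (GRCm38.p6) were searched on both strands for the full element bound by a receptor dimer (AGAACA and TGTTCT with any 3 bases between them) and for its single arm AGAACA, which lies inside it. The full element was in 3 of 32851 promoters in the table and the single arm in 16.1%. For the members, 15 promoters of 8 genes were searched, 6 of them of Sgk1, and Nr3c1 and Zbtb16 were not searched. The full element was in 1, and the single arm in 4, of Sgk1 and Tsc22d3. A site that departs from these sequences or lies farther from the start would not be found, so a promoter without a match may still have one. Which Sgk1 start gives rise to the measured RNA is not known from the array. The stretch lies at chr10:21993640-21993889 (GRCm38.p6, + strand), and capitals mark the element, from base -189 to -175 before the start.
Sgk1: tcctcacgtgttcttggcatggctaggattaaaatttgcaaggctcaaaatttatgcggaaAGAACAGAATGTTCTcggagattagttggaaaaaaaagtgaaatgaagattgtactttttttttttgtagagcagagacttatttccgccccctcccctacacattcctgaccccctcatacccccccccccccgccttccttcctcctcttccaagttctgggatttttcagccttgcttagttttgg

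The log2 intensity of Dusp1 was 1.72, 2.25, 2.33 and 1.88 on Sham 1 to Sham 4 and 0.22, 1.02, 1.93 and 0.77 on TAC 1 to TAC 4. TAC 3 lay within the Sham range and the other 3 TAC arrays lay well below it. The scanner arrays gave the largest difference in size among the members, -1.15 ± 0.37 (SE, limma adjusted p = 0.312), or 2.22-fold higher in Sham, and -1.06 ± 0.34 with Sham 1. It was -1.46 without TAC 3 and -0.89 without TAC 1. TAC 3 was also the highest TAC array for Sgk1.

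The metallothioneins Mt1 and Mt2 are small cysteine-rich proteins that bind zinc and copper, and their genes respond to glucocorticoids and, through metal response elements, to metal ions. Both were lower after TAC, Mt2 by more. The messages are close paralogs, so a probe of one may also capture the other.

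The log2 intensity of Mt2 was 7.54, 7.74, 8.08 and 8.18 on Sham 1 to Sham 4 and 6.90, 7.41, 7.03 and 7.06 on TAC 1 to TAC 4. Each TAC array lay below each Sham array. TAC minus Sham was -0.88 ± 0.16 (SE, 95% confidence interval -1.26 to -0.50, limma adjusted p = 0.197), or 1.84-fold higher in Sham, and -0.78 ± 0.17 with Sham 1. The SD was 0.29 over the 4 Sham arrays and 0.22 over the TAC arrays.

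For Mt1 the log2 intensity was 8.98, 9.12, 9.39 and 9.30 on Sham 1 to Sham 4 and 8.56, 9.06, 8.85 and 8.91 on TAC 1 to TAC 4. The groups overlapped through Sham 1 and TAC 2 alone. The log2 difference was -0.41 ± 0.14 (SE, limma adjusted p = 0.331) and -0.35 ± 0.13 with Sham 1. The second Mt1 probe, designed on a predicted transcript, read 1.21, 1.98, 1.59 and 1.79 on Sham 1 to Sham 4 and 1.18, 1.32, 1.25 and 1.30 on TAC 1 to TAC 4. It gave a difference of -0.51 ± 0.11 (limma adjusted p = 0.197), with Sham 1 alone among the Sham arrays lying in the TAC range.

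Within an array, log2 Mt2 minus log2 Mt1 was -1.43, -1.37, -1.31 and -1.12 on Sham 1 to Sham 4 and -1.65, -1.65, -1.82 and -1.84 on TAC 1 to TAC 4. These values use the brighter Mt1 probe. The mean was -1.31 ± 0.14 (SD, n = 4) in Sham and -1.74 ± 0.11 (SD, n = 4) in TAC, and the groups did not overlap. The difference between the groups was -0.43. With the second Mt1 probe in its place the groups overlapped, since Sham 2 lay among the TAC arrays. This comparison was chosen after the values were seen, so it is a description with no test.

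**Figure D3:**
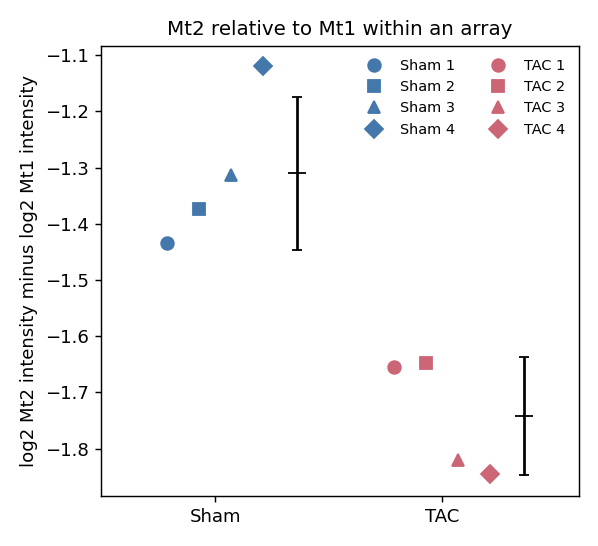
Log2 intensity of Mt2 minus that of the brighter Mt1 probe on each array, for 4 Sham (blue) and 4 TAC (red) arrays. The mean and SD of each group are in black. The Sham arrays sat between -1.43 and -1.12 and the TAC arrays between -1.84 and -1.65, with Sham 1 included.

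The stretches before the starts of Mt2 and Mt1 are shown because both genes sit next to each other and were lower together. They were searched on both strands for the metal response element core, TGCACNC or TGCGCNC, and no match overlapped an arm of the glucocorticoid element. Of all promoters in the table, 21.4% held a match and 1.26% held 3 or more. Mt2, at chr8:94172368-94172617 (GRCm38.p6, + strand), held 3, from base -223 to -217, -128 to -122 and, on the opposite strand, -50 to -44. Mt1, at chr8:94178839-94179088 on the same strand, held 1, from -23 to -17. Capitals mark the matches, and neither stretch held the arm AGAACA. Bases outside these stretches were not searched, and which start gives rise to the measured RNAs is not known from the array. The counts therefore describe the 2 stretches, not all elements of either gene.
Mt2: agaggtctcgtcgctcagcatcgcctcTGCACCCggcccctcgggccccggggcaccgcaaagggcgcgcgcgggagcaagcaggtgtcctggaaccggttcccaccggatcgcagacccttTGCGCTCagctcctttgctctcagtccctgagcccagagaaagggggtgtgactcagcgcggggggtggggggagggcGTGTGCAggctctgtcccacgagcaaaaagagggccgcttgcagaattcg
Mt1: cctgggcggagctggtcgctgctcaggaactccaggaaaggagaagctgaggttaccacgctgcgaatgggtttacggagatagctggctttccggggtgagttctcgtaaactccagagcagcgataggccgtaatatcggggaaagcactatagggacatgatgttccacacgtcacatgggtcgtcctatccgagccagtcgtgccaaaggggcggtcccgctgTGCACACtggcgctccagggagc

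The Sham arrays differed among themselves as much as the groups did for several of these genes. Sham 1 was the lowest Sham array for 9 of the 10 members, all but Nr3c1, against 36.2% of all tested probes. It was also the lowest for 17 of 31 other glucocorticoid response genes and for 10 of 19 tested genes of the receptor complex, coregulators and hormone supply. Sham 4 was the highest Sham array for 5 of the 10 members and for 17 of the 31 other response genes, against 24.3% of all tested probes. These shares describe 4 arrays and carry no test.

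**Figure D4:**
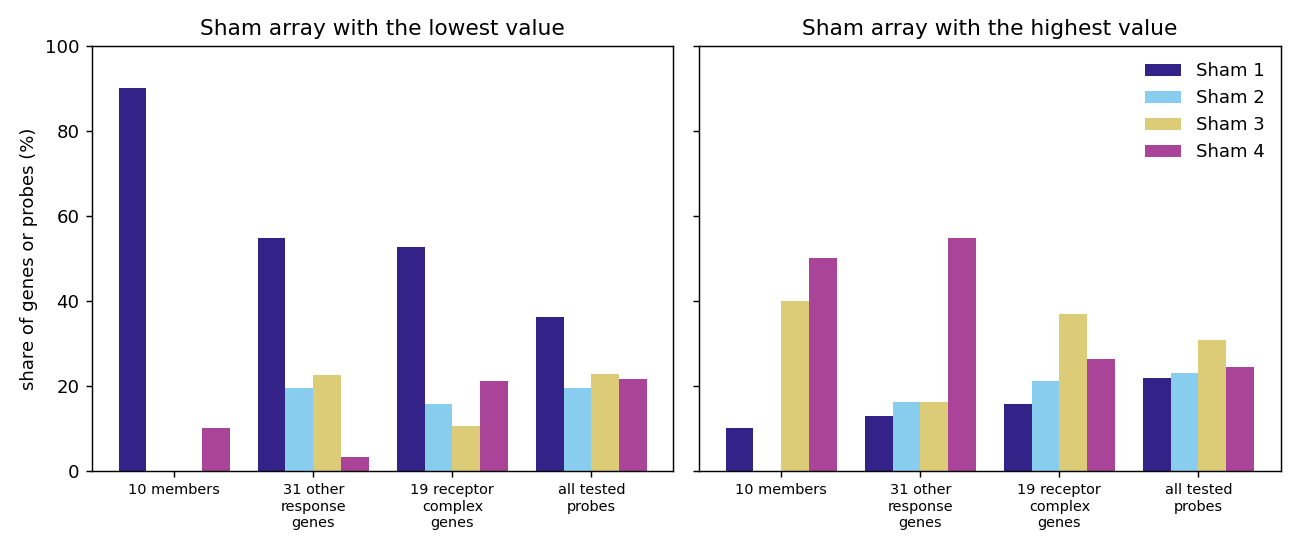
Share of genes or probes for which each Sham array gave the lowest (left) or the highest (right) of the 4 Sham values in the deposited table, for the members, 2 related gene lists and all 33359 tested probes. Sham 1 was lowest for 90% of the members and 54.8% of the other response genes, and Sham 4 was highest for 50% and 54.8% of them.

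Among 31 other glucocorticoid response genes, 23 were higher and 8 lower after TAC on the 7 arrays, with a median log2 difference of 0.08. Over all tested probes 44.2% were higher. At an unadjusted p under 0.05, 2 of the 31 were higher and 0 lower, beside 4.38% and 8.43% of all probes, and 0 passed the adjusted threshold in limma. Angptl4, which encodes a secreted inhibitor of lipoprotein lipase, read 7.94, 7.49, 7.96 and 7.89 on Sham 1 to Sham 4 and 8.58, 8.06, 8.48 and 8.63 on TAC 1 to TAC 4. It was the only gene of this list of 31 with TAC wholly above Sham over 8 arrays, beside 3.53% of all tested probes. Angptl4 had a log2 difference of 0.67 ± 0.18 (limma adjusted p = 0.255). Cited2, a transcriptional coregulator that binds CBP and p300, differed by 0.90 ± 0.33 (limma adjusted p = 0.349), with overlap through Sham 1 and Sham 2. Hif3a, a hypoxia-inducible factor subunit, differed by 0.42 ± 0.24 (limma adjusted p = 0.486).

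Of 20 genes of the receptor complex, its coregulators and hormone supply, 19 were tested. Of these 12 were higher, Serpina6 among them, and 7 lower, with a median of 0.05. The share higher over all tested probes was 44.15%. Serpina6, which encodes corticosteroid-binding globulin, the plasma carrier of the hormone, was not well above background on any Sham array with a scanner reading, and was so on 3 of 4 TAC arrays. It therefore passed the filter for testing through its TAC arrays alone, so its place among the 12 genes higher depends on that filter. With each Sham value set no lower than that of the dimmest probe well above background on its array, the TAC mean was 2.43-fold higher. That mean includes TAC 4, and the floor is not a strict limit for this probe, so the fold is approximate. The limma fit, which takes the measured Sham values as they are, gave an adjusted p of 0.376 and is no test of that fold. TAC 4 was as dim as the Sham arrays, and a second Serpina6 probe was not above background on any array. The corepressor Ncor1 differed by 0.19 ± 0.10 (limma adjusted p = 0.450). Of the 19 tested genes, only the coactivator Ncoa2 was lower on each TAC array than on each Sham array in the table. Among all tested probes 6.3% lay wholly below. The log2 difference of Ncoa2 over the 8 arrays was -0.14 ± 0.07 (limma adjusted p = 0.410). On the 7 scanner arrays its groups overlapped, and the difference was -0.11 ± 0.08 (limma adjusted p = 0.576).

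Of 8 other metallothionein and zinc handling genes, 7 were lower and 1 higher on the 7 arrays, with a median log2 difference of -0.15. Over all tested probes 55.85% were lower. With all 8 arrays fitted, 6 of these genes were lower and 2 higher. On the 7 arrays 0 had an unadjusted limma p under 0.05, beside 8.43% of all probes lower and 4.38% higher. Mt3, the metallothionein best known from brain, differed by -0.19 ± 0.11 (limma adjusted p = 0.50). Slc39a1 and Slc39a10, both zinc importers, differed by -0.18 ± 0.13 and 0.19 ± 0.16.

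Of 10 immediate early genes, which answer to acute stimuli as Dusp1 does, 8 were lower and 2 higher, with a median of -0.52. The share lower over all tested probes was 55.85%. Atf3, a stress-induced transcription factor, differed by -0.91 ± 0.37 (limma adjusted p = 0.38). Jun, a subunit of AP-1, went the other way by 0.39 ± 0.17 (limma adjusted p = 0.407), and Ier2 differed by -0.53 ± 0.34. Relative to the Sham mean, the mean of the list ran from -0.99 to 0.68 over the Sham arrays. Over the TAC arrays it ran from -0.99 to -0.28. The Sham spread thus spanned nearly the whole TAC range, with TAC 4 just below the lowest Sham array, Sham 4. The part of this spread in the values of Dusp1 and Sgk1 was not tested.

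**Figure D5:**
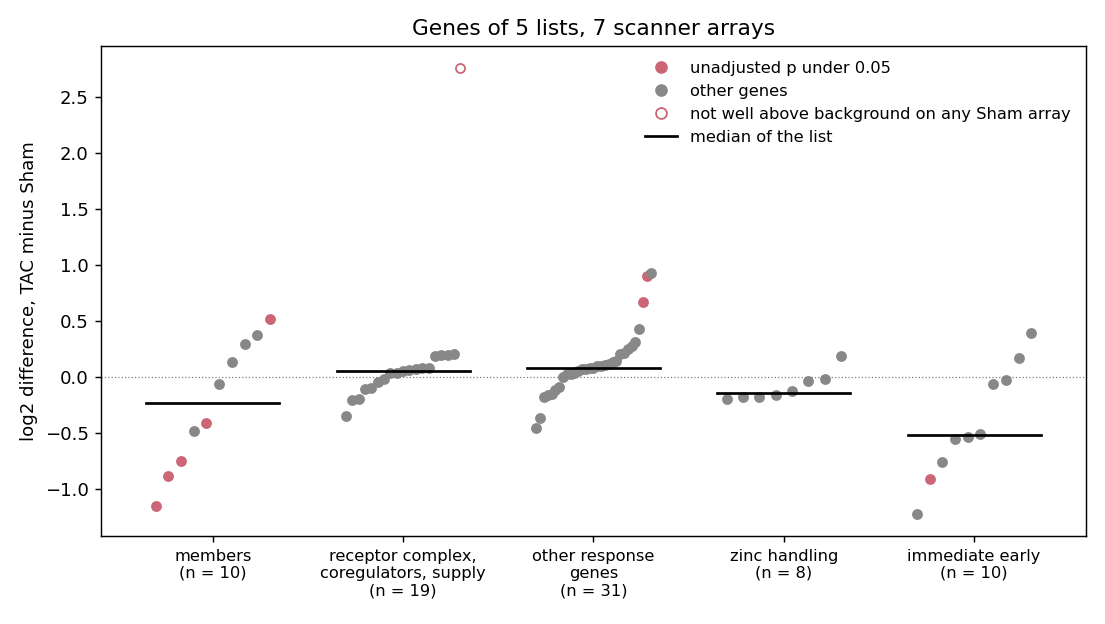
Log2 difference, TAC minus Sham, of each tested gene in 5 lists on the 7 scanner arrays. Black lines are list medians and red marks an unadjusted limma p under 0.05. The open circle at 2.76 is Serpina6, dim on all 3 Sham arrays, so its plotted value is no measured fold.

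The means of cell type markers also varied between arrays. TAC 1, the lowest TAC array for Hsd11b1, Dusp1, Mt1 and Mt2 and for Fkbp5, Tsc22d3 and Zbtb16, had the lowest mean of 10 brown adipocyte markers, -1.10 relative to the Sham mean, where the other TAC arrays had -0.46 to 0.06 and the Sham arrays -0.21 to 0.27. Elovl3 and Dio2, inducible thermogenic genes, stood at -5.36 and -2.36 there, and the mean of the other 8 markers was -0.41, against -0.07 to 0.07 on the other TAC arrays and -0.11 to 0.19 in Sham. These 2 genes were set apart after their values were seen. TAC 1 also had the highest mean of 9 macrophage markers, 0.75, where the other TAC arrays had -0.44 to -0.13 and the Sham arrays -0.19 to 0.13. Of the brown adipocyte markers 8 of 10 were lower on the 7 arrays, and of the macrophage markers 6 of 9 were higher, but 3 of 9 with Sham 1. For the 5 of 8 lymphocyte markers bright enough to be tested, TAC 1 had 0.97, the other TAC arrays -0.62 to -0.34 and the Sham arrays -0.38 to 0.45. Of these 5 markers 5 were higher on the 7 arrays, but 0 were higher and 5 lower with Sham 1. For 8 skeletal muscle markers the mean ran from -1.03 to 0.62 in Sham. It was 1.43, 0.85, -0.68 and 1.24 on TAC 1 to TAC 4, so only TAC 3 was not above all Sham arrays. On average 8 of 8 were higher after TAC. For 6 endothelial markers the mean ran from -0.11 to 0.11 in Sham and from 0.00 to 0.16 in TAC. For 5 fibroblast markers it ran from -0.27 to 0.10 in Sham, and was 0.52 on TAC 1 and -0.33 to -0.01 on the other TAC arrays. The part of these markers in the differences of the members was not tested. Without TAC 1, the log2 difference on the scanner arrays was -0.81 for Mt2, -0.31 for Mt1 and -0.89 for Dusp1. Then 2 members rather than 1 were higher at an unadjusted limma p under 0.05, beside 4.68% of all probes.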

How the data were processed

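The authors deposited 1-colour array readings made with Agilent Feature Extraction 10.7.1.1 (per the labels), as processed signal intensity per spot for 7 arrays and as a table of intensity per probe for 8. How the table was scaled is not stated. On the 7 arrays read both ways, its log2 values lay 0.17 to 0.21 above those computed here, by a constant for each array, with no centring of genes and the same direction. Only the table holds Sham 1.

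Here log2 intensity minus the 75th percentile of each array was averaged over the spots of a probe, without outlier spots. A probe was tested if 3 or more of the 7 arrays read it well above background and each group had 2 or more usable readings, with limma 3.58.1 (R 4.3.3) and Benjamini-Hochberg adjustment. The script was tested on simulated data. Probes were named through the RefSeq table (GRCm38.p6), which named 94.1% of those with a RefSeq accession, and the brightest probe stood for a gene. Members and lists were chosen with earlier results of these data known. Of each list, the 3 genes with the smallest p and those whose groups did not overlap were named, and the marker lists were given as means. The result of 1 gene that this rule names is not reported here. Precision is limited by the number of arrays. Residuals of arrays with the same replicate number correlated between -0.03 and 0.27, not above 0.1 throughout, so the numbers were not taken as pairs. Alternatives were other background corrections and normalizations, array weights, probe averaging, a plain t statistic per probe, the table, a replicate block and leaving out each array.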

Additional observations from a re-analysis of the deposited data

Results flagged for a closer look

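In 46 groups of 4 arrays (members and list means, table values), 4 had a lone array whose gap to its neighbour, divided by the group's range, passed Dixon's 95% critical value for 4 values. Chance gives about 1 in 20.

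For Nr3c1, Sham 4 lay alone at a log2 intensity of 4.09, below the other Sham arrays at 4.35 to 4.38. For Hsd11b1, TAC 1 lay alone at 4.98, below the other TAC arrays at 5.90 to 6.06. For Zbtb16, TAC 1 lay alone at 5.11, below the other TAC arrays at 5.43 to 5.48. For the mean of the fibroblast markers relative to the Sham mean, Sham 3 lay alone at -0.27, below the other Sham arrays at 0.07 to 0.10.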

How the results depend on the processing

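No member passed an adjusted p of 0.05 in any of 28 alternatives, of which 1 was a plain t statistic and the others limma, and the lowest was 0.0758, for Mt2. Some alternatives could not change a member's direction. Other filters on dim probes, an intensity trend in limma and the plain t statistic left each difference as it was. The replicate block gave the differences of the fit without TAC 1 on the scanner arrays and of the 8-array table. With these counted, 278 of 280 member values kept their direction, so that count overstates how far the direction was tried. The exceptions were Nr3c1, at 0.012 under quantile normalization, and Sgk1, at 0.0058 in the table without Sham 3. Their cause was not tested. Mt2 and Zbtb16 had an unadjusted p under 0.05 in 28 of 28 alternatives, Dusp1 in 26, Hsd11b1 in 23, Mt1 in 21, Tsc22d3 in 8, Fkbp5 in 4, Sgk1 in 2, Klf9 in 1 and Nr3c1 in 0.

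The number of members higher at that p was 2 under quantile normalization, beside 5.71% of all probes, and in the 8-array table, beside 4.65%. Leaving out 1 array gave 1 to 3 on the scanner arrays (3 without Sham 4, beside 3.28%) and 1 to 4 in the table. There it was 4 without Sham 4, beside 4.45%, and 3 without TAC 1, beside 4.57%. The number lower ran from 1 without Sham 3, beside 4.8%, to 5 without TAC 3, beside 7.9%, both on the scanner arrays. In the table it was 2 without Sham 3, beside 6.67%, or without Sham 4, beside 7.83%. The share of all probes at that p moved too, from 2.67% to 5.71% higher and from 4.8% to 10.8% lower over these settings. With a replicate block, 2 members were higher on the scanner arrays, where TAC 1 has no partner and drops out, and 3 in the table. The shares of all probes higher were 4.03% and 4.73%. Paired in this way, Mt2 differed by -0.81 and -0.78. On the scanner arrays 3 members were lower at that p, beside 7.44% of all probes, Mt1 (-0.31) no longer among them.

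Over all probes, 1 probe passed lower under normexp, median centring, array weights, and the table without Sham 1, which is the same fit as the table's values of the 7 scanner arrays. Leaving out 1 array gave 0 to 14 higher and 0 to 2 lower. Without TAC 4 there were 6 higher and 1 lower on the scanner arrays and 14 and 2 in the table, and without TAC 2 the table gave 1 higher.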
